A study of Mus musculus with 6 samples.

Results

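Integrins are receptors made of an α and a β subunit that hold cells to the extracellular matrix, and 8 subunits that act outside the hemidesmosome were followed here in embryonic mouse epidermis lacking Sox4, Sox11 or both. The subunits were Itga2, Itga3, Itga5, Itga9, Itgav, Itgb1, Itgb5 and Itgb6, chosen by name as receptor genes linked to cell migration. They are 8 of the 21368 genes with a named probe on the array and were read by 11 of its 55681 probes. None of the 8 subunits passed the test in any genotype, and at each gene's brightest probe the fitted log2 fold changes against wild type lay between -0.32 (Itga9 in dcKO) and 0.19 (Itgb6 in dcKO).

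RNA came from epidermis of embryos at embryonic day 16, whose strain the labels give as 129SvEx:C57BL/6. Per the study's methods the floxed founders also carried Sox12-/- and were crossed to Krt14-Cre mice of the FVB/N strain, and the labels do not give the Sox12 genotype of these embryos. On each of the 6 arrays, in 2 colours, knockout epidermis was set against that of wild-type littermates. The genotypes were Sox4 cKO, Sox11 cKO and the double knockout of Sox4 and Sox11 (dcKO), with 2 arrays per genotype, and floxed alleles were deleted by Krt14-Cre, which acts in keratinocytes. The knockout was in Cy5 on replicate 1 and in Cy3 on replicate 2. The labels call the 2 arrays of a genotype biological replicates, but they do not say how many embryos each RNA came from or whether wild-type RNA was shared between arrays, and p-values measure only the spread between these arrays.

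Itgb1 encodes the common β subunit that pairs with several α partners in basal keratinocytes. Among those partners, the products of Itga2 and Itga3 bind collagen and the laminin of the epidermal basement membrane, and those of Itga5 and Itga9 bind fibronectin and tenascin. The product of Itgav pairs with those of Itgb5 and Itgb6, and the latter pairing binds fibronectin and latent TGFβ and is known for its induction in keratinocytes of healing wounds. Bound integrins recruit talin, kindlin and other adaptors that join them to actin, which is how a keratinocyte grips and pulls on the matrix as it moves.

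The promoters of Itgb1 and Itga9 are shown because Itgb1 is the shared β subunit and Itga9 had the lowest p-value of the 8. Each window runs from 250 bases before the transcription start to 50 after it on the gene's strand (RefSeq, GRCm38.p6), and capitals mark a match to a motif searched on both strands. The Itgb1 window (chr8:128685404-128685703, plus strand) holds ACAAAG, a core sequence that SOX proteins bind, on the opposite strand 85 bases before the start. The Itga9 window (chr9:118711442-118711741, plus strand) holds the AP-1 motif TGANTCA 38 bases after the start.
Itgb1 promoter window: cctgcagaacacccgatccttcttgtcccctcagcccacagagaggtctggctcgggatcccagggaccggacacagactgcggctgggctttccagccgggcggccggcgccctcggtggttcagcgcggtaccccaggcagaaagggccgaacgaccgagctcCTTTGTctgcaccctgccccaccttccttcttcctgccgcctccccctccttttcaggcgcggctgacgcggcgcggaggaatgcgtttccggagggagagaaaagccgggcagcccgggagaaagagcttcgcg
Itga9 promoter window: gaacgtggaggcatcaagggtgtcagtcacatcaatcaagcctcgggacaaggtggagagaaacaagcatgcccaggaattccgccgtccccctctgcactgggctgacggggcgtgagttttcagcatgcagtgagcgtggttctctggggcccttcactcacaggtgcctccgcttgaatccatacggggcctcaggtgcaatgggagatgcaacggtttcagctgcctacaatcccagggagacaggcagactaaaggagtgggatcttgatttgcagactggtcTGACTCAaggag
The 8 genes have 10 such windows, since Itga3 and Itgb6 have a pair each. ACAAAG was found in 2 of the 10, those of Itgb1 and Itga3, against 18.7% of all 32851 mouse windows. ACAATG, another SOX core, was found in 0 of the 10 and in 12.6% of all windows. TGANTCA was found in 2 of the 10, those of Itga3 and Itga9, against 7.81% of all windows. A match to so short a motif is a description of the letters and not a bound site.

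The labelled tissue was checked first. All 7 basal keratinocyte markers and all 5 suprabasal markers were well above background in every channel. Markers of dermal fibroblasts were present too, although the epidermis had been peeled from the dermis, and their summed level ranged from 7340 to 23400 in wild-type channels and from 7880 to 12500 in knockout channels. The mean log2 ratio of these 12 markers was -1.95 and 0.52 on the Sox4 cKO arrays, -1.10 and -0.93 on the dcKO arrays, and 0.60 and -0.31 on those of Sox11 cKO, with replicate 1 of Sox4 cKO apart from the rest. Skeletal muscle markers were also lower in the knockout on that array, with a mean log2 ratio of -1.75. Their summed level there was 355 in the knockout and 1700 in wild type, where the other wild-type channels lay between 279 and 577. The fibroblast sum on that array was 11000 in the knockout and 23400 in wild type. The wild-type channel of that array was therefore the unusual side. The 6 markers of periderm, the outer cell layer of embryonic skin, had mean log2 ratios of -1.15 and -0.99 in dcKO, where 3 of them passed, -1.29 and -0.50 in Sox11 cKO, and 0.46 and 0.23 in Sox4 cKO. Suprabasal markers were higher in dcKO, at 0.72 and 0.61, and at 1.32 on replicate 2 of Sox11 cKO, without passing. Of both Sox4 probes, the dimmer had a log2 fold change of -1.96 in Sox4 cKO (limma, adjusted p = 0.0284) and -1.58 in dcKO (adjusted p = 0.00223), whereas the brighter had -0.42 (adjusted p = 0.802) and -0.82 (adjusted p = 0.0768). Of both Sox11 probes, the better detected was well above background in 3 of 6 wild-type channels and 1 of 6 knockout channels, and the other in 0 on either side. The better detected read 0.05 in Sox11 cKO and -0.72 in dcKO (limma, adjusted p = 0.979 and 0.196). These dim probes therefore did not show a loss of Sox11 RNA in Sox11 cKO. The paper reports RT-qPCR of the epidermal RNAs, done before the arrays to check that Sox4 and Sox11 were lost.

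Levels are given as log2 channel intensities after normalisation, and they can be compared between samples for a gene but not between genes, because probes differ in brightness. Itgb5, Itga3, Itgb1, Itgav and Itgb6 were well above background in all channels. Itgb5 ranged from 11.20 to 11.55 in the 6 wild-type channels (median 11.42), Itga3 from 7.32 to 7.80 (median 7.41) and Itgb1 from 7.12 to 7.38 (median 7.28). Itgav ranged from 5.81 to 6.19 (median 6.03) and Itgb6 from 5.70 to 6.33 (median 5.92). The others were dim. Itga9 was well above background in 4 of the 6 wild-type and 3 of the 6 knockout channels, with wild-type levels of 5.39 to 5.77. Itga2 was well above background in 2 of 6 channels on either side, with wild-type levels of 4.76 to 5.63. Itga5 was well above background in 0 of 6 channels on either side, so its ratios compare signals at the level of background and do not measure a change.

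**Figure D1:**
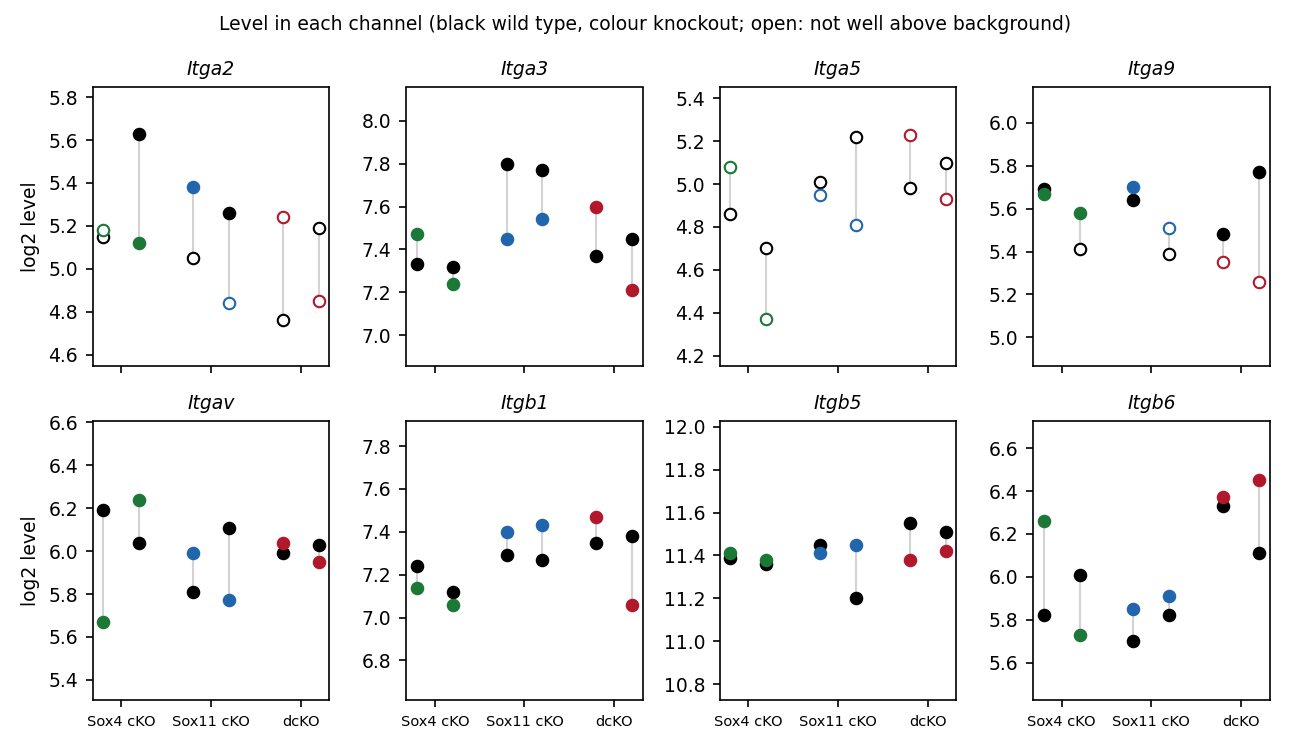
Normalised log2 level of each subunit in each channel. Each panel has its own level range of the same height, the x axis gives the genotype with replicate 1 on the left, black points are wild type, coloured points are the knockout on the same array, and open points were not well above background. Itga5 is open throughout, and in dcKO the Itga9 knockout channels are open where both wild-type channels are filled. The Itga9 levels lie near the limit of detection.

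The first comparison asked whether loss of Sox4, Sox11 or both changed the level of a subunit. Ratios are log2 of knockout over wild type on the same array, given for replicate 1 and then replicate 2. A subunit passed where its Benjamini-Hochberg adjusted p in limma, taken over all 55681 probes, was under 0.05. In dcKO 0 of 8 passed, against 0.833% of all probes. In the single knockouts 0 of 8 passed as well, against 0.00539% (Sox4 cKO) and 0% (Sox11 cKO) of all probes. At an unadjusted p under 0.05 the count was also 0 of 8 in each genotype, where 9.89% (dcKO), 6.18% (Sox4 cKO) and 7.05% (Sox11 cKO) of all probes lay under it.

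Itgb1, the shared β subunit, had ratios of -0.10 and -0.06 in Sox4 cKO. Loss of Sox11 gave 0.12 and 0.16, and loss of both gave 0.12 and -0.31. The single knockouts were therefore slightly below and slightly above wild type on both arrays, and the dcKO arrays disagreed in sign. The fitted log2 fold changes were -0.08 ± 0.14, 0.14 ± 0.14 and -0.10 ± 0.14 (SE, n = 2 each), with adjusted p of 0.962, 0.881 and 0.887 in limma. In dcKO the 95% interval ran from 0.748-fold to 1.17-fold of wild type. A second, dimmer Itgb1 probe went the other way in each genotype, at 0.11, -0.33 and 0.05. Its Sox11 cKO arrays read 0.16 and -0.81, and its unadjusted p of 0.047 there became 0.706 after adjustment.

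The laminin receptor subunit Itga3 was lower on both Sox11 cKO arrays, at -0.34 and -0.24. In Sox4 cKO it read 0.15 and -0.09, and in dcKO 0.23 and -0.24. The fitted change in Sox11 cKO was -0.29 (95% interval -0.62 to 0.03, limma adjusted p = 0.728) and became -0.06 without replicate 1 and -0.52 without replicate 2 of that genotype, while in Sox4 cKO it was 0.03 and in dcKO 0.00 (interval -0.33 to 0.32).

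Itga2, the collagen receptor subunit, read 0.47 and -0.34 in dcKO, 0.03 and -0.51 with Sox4 lost, and 0.34 and -0.43 with Sox11 lost. In every genotype the Cy5 channel was the brighter side, so its 2 arrays moved apart with the dye. The fitted changes were 0.06, -0.24 and -0.04 in that order, with limma adjusted p of 0.925, 0.828 and 0.969. In dcKO neither side was well above background on either array. For Itga5, the fibronectin receptor subunit, the ratios were 0.25 and -0.17, 0.22 and -0.33, and -0.06 and -0.42 in the same order, which are ratios of signals at the level of background.

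Itga9, a receptor subunit for tenascin and related ligands, had the lowest p-value of the 8. With Sox4 lost its ratios were -0.01 and 0.18, and with Sox11 lost they were 0.06 and 0.13. In dcKO they were -0.13 and -0.52. The dcKO ratios lay below all 4 of the single knockouts, in a gene singled out for its p-value. The share of all probes that did so was not counted. Both wild-type channels of the dcKO arrays were well above background and neither knockout channel was. These marks lay near the limit of detection. In Cy3, the wild-type level of 5.48 on dcKO replicate 1 was marked, whereas the knockout level of 5.51 on Sox11 cKO replicate 2 was not. How many of all probes had such marks in dcKO was not counted. The measured means were 5.30 in dcKO and 5.63 in wild type on the log2 scale. They differ 1.25-fold, which is the measured ratio and not a lower bound, and it leaves out the spread between arrays. The fitted change was -0.32 (95% interval -0.65 to 0.01), which did not pass (limma, adjusted p = 0.514), and without dcKO replicate 2 the fitted change was -0.06. With an offset of 50 it was -0.18, and with the Feature Extraction log ratio it was -1.07 (adjusted p = 0.563).

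Itgav, the shared α partner of Itgb5 and Itgb6, read 0.05 and -0.08 in dcKO, -0.52 and 0.20 in Sox4 cKO, and 0.18 and -0.34 on the arrays of Sox11 cKO. Each pair straddled 0, and the fitted changes were -0.02, -0.16 and -0.08. Its second probe gave 0.08, 0.25 and -0.22.

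Itgb5, which pairs with the Itgav product in a vitronectin receptor, had the smallest spread between the Sox4 cKO arrays, which both read 0.02. It read -0.03 and 0.24 in Sox11 cKO, and in dcKO both arrays were below wild type, at -0.17 and -0.09. The fitted dcKO change was -0.13 (95% interval -0.43 to 0.17, limma adjusted p = 0.812). Itgb6 read 0.45 and -0.28 in Sox4 cKO. It was above wild type on both arrays in Sox11 cKO, at 0.15 and 0.09, and in dcKO, at 0.04 and 0.34. The fitted dcKO change of 0.19 (interval -0.21 to 0.59, limma adjusted p = 0.791) was the highest of the 8, and a dimmer Itgb6 probe gave 0.02.

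**Figure D2:**
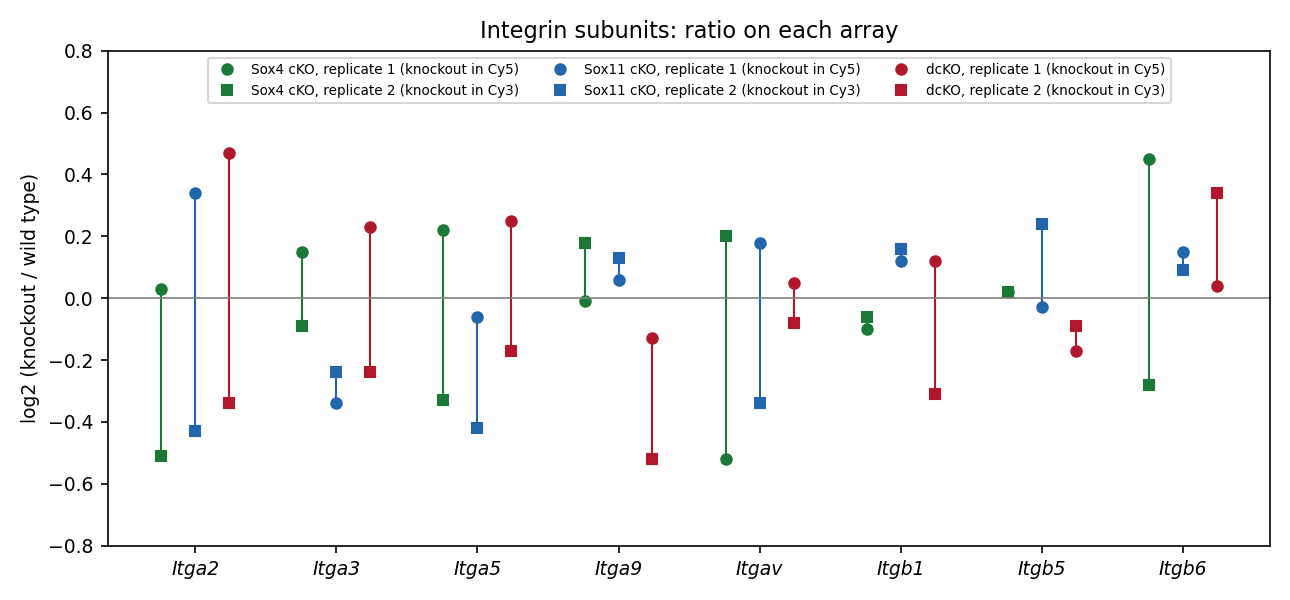
Log2 ratio of knockout over wild type for each subunit (y axis) on each of the 6 arrays. Circles are replicate 1 (knockout in Cy5), squares are replicate 2 (knockout in Cy3), a line joins the arrays of a genotype, and in dcKO Itga9 is at -0.13 and -0.52 whereas Itgb6 is at 0.04 and 0.34.

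As a group the subunits were close to all genes measured. Their median log2 fold change was -0.02, 0.02 and -0.01 for Sox4 cKO, Sox11 cKO and dcKO, and over all 21368 named genes it was 0.00, 0.00 and -0.01. The median size of the change without its sign was 0.08, 0.11 and 0.08, against 0.10, 0.11 and 0.13 over all named genes. In dcKO 1 subunit was above wild type on both arrays (24.6% of all probes were) and 2 were below on both (25.2% of all probes were). The corresponding counts were 1 and 1 in Sox4 cKO (23% and 22.9% of all probes) and 3 and 2 in Sox11 cKO (22.5% and 22.8%). No 95% interval of the 8 subunits in these genotypes went below 0.635-fold (Itga9 in dcKO) or above 1.51-fold (Itgb6 in dcKO). An offset of 16 added to each signal pulls the ratios of dim probes towards 0, and spiked transcripts of known ratio came out at 0.828 to 0.848 of their log ratio, so these intervals describe a compressed scale.

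**Figure D3:**
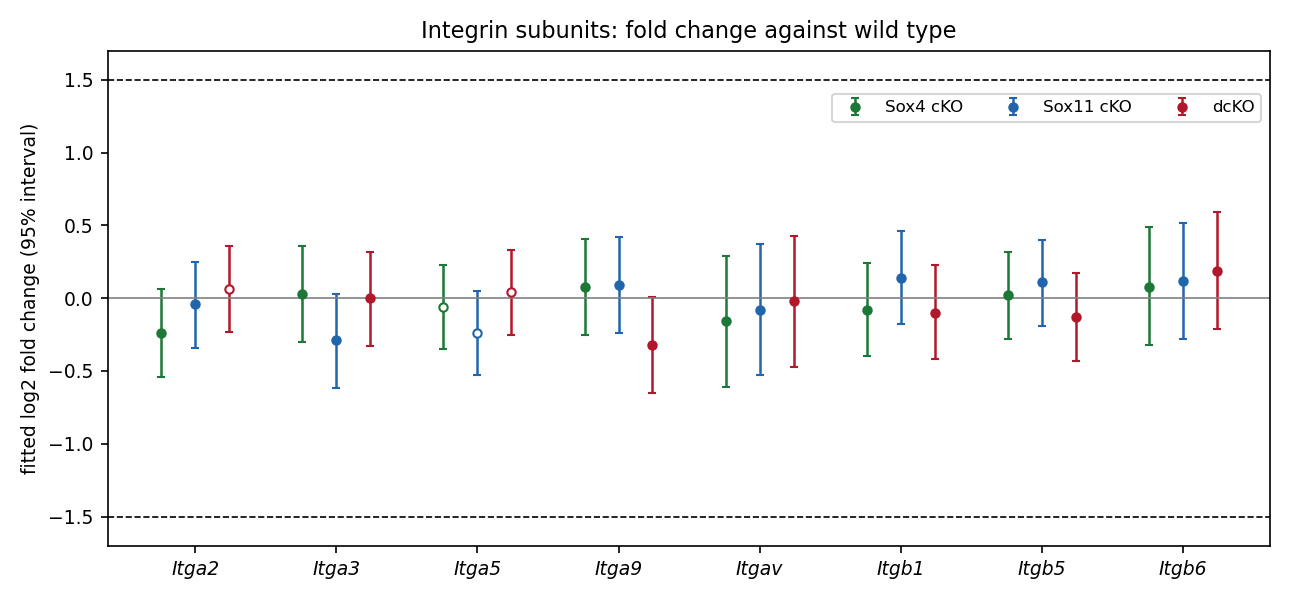
Fitted log2 fold change against wild type (y axis) of each subunit in each genotype, with 95% intervals from limma and dashed lines at the 1.5 threshold of the study's methods. Open points mark Itga5 throughout and Itga2 in dcKO, where neither side was well above background, and all intervals include 0 and lie inside the dashed lines.

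The second comparison asked whether the double knockout differed from either single knockout or from the sum of both. Again 0 of 8 subunits passed for dcKO minus Sox4 cKO (0.147% of all probes passed), for dcKO minus Sox11 cKO (0.163%) and for dcKO minus the sum (0.088%), and 0 of 8 had an unadjusted p under 0.05 in limma, where 6.12%, 7.21% and 6.38% of all probes did. Itga9 had the lowest p in each, with log2 differences of -0.41 (95% interval -0.87 to 0.06), -0.42 (-0.88 to 0.05) and -0.50 (-1.07 to 0.07). These 3 values share the same pair of dcKO arrays, and their adjusted p were 0.847, 0.728 and 0.810. Without dcKO replicate 2 they were -0.15, -0.16 and -0.24, and with the Feature Extraction log ratio -1.20, -1.30 and -1.44, none of which passed. Itga3 differed from Sox11 cKO by 0.29 (-0.17 to 0.75).

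The other receptors gave a similar picture. Of 18 other integrin subunits with a probe, 9 were above background and 0 passed in any genotype. Itga6 and Itgb4, which form the hemidesmosome receptor, read 0.01 and -0.10 in dcKO. The lowest adjusted p in dcKO was that of Itga4, a subunit common on blood and mesenchymal cells, at -0.62 (arrays -0.43 and -0.81, limma adjusted p = 0.146). Itga1, a collagen receptor subunit, read -2.05 and -0.05 on the dcKO arrays, so its fitted -1.05 (adjusted p = 0.325) came from replicate 1.

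Among 35 extracellular ligands of integrins, 3 fell in dcKO, which is 8.57%, against 0.309% of all probes, 0.608% of named genes and 1.02% of named genes above background. The list was drawn up with earlier results of these data known, so its share is not an independent test. Col4a1 and Col4a2, the chains of basement membrane collagen, fell by 1.46 (limma, adjusted p = 0.00704) and 0.96 (adjusted p = 0.037) on the log2 scale. The Col4a1 arrays read -1.29 and -1.62 and the Col4a2 arrays -0.90 and -1.01. With each array left out in turn, the Col4a1 change ran from -1.72 to -1.19 and that of Col4a2 from -1.24 to -0.67. The call of Col4a2 was also lost with some arrays of a single knockout left out. Mfge8, a secreted ligand of αv integrins, fell by 0.98 (arrays -1.11 and -0.85, adjusted p = 0.0103). In Sox4 cKO the same genes read -1.10, -0.69 and -0.58, and in Sox11 cKO -0.22, -0.01 and -0.11, none of which passed. The Sox4 cKO arrays differed from each other, with mean log2 ratios of -0.53 and 0.05 over the 35 ligands. Fibroblast markers averaged -1.95 and 0.52 on them, and their part in the Sox4 cKO values was not tested. The differences of dcKO from each single knockout did not pass either (lowest adjusted p = 0.174, Col4a1 against Sox11 cKO). The dermal fibroblast markers, with mean log2 ratios of -1.10 and -0.93, were lower on the same dcKO arrays, as were the periderm markers, and their part in these values was not tested. The collagens Col1a1, Col1a2 and Col3a1, made by fibroblasts, read -1.92, -2.03 and -2.12 in dcKO and did not pass. Without dcKO replicate 2, 0 of the 35 ligands passed.

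Of 46 adaptor and signalling genes, 3 fell in dcKO, which is 6.52%, against the same shares of 0.309%, 0.608% and 1.02%. Passing sets no limit on the size of a change. Of the ligands and adaptors that fell, only Tes also exceeded the log2 fold change of 1.5 in the study's methods. This list too was drawn up with earlier results known, and it holds Fblim1, which the paper had reported as lowered in dcKO. Its share is therefore not an independent test. On these arrays the periderm markers averaged -1.15 and -0.99, the fibroblast markers -1.10 and -0.93 and the suprabasal markers 0.72 and 0.61, and their part in the adaptor values was not tested. Tes, an LIM-domain protein of focal adhesions, fell by 1.62 (arrays -1.64 and -1.60, limma adjusted p = 0.00101). In Sox4 cKO it also fell by 1.53 (arrays -1.38 and -1.68, adjusted p = 0.0288), the only gene of the 5 pathway lists to pass in a single knockout. In Sox11 cKO it read 0.12 and 0.14, and the difference of dcKO from Sox11 cKO passed (-1.76, adjusted p = 0.0103, against 0.0377% of all probes lower there). Leaving out any array of a single knockout ended the call in Sox4 cKO (highest adjusted p = 0.139), and leaving out either Sox11 cKO array ended that of the difference (highest adjusted p = 0.146), but no array ended the call in dcKO. Fblim1, which links filamin to the adhesion, fell by 1.09 (arrays -1.05 and -1.12, adjusted p = 0.0109), and Tns1, a tensin that joins β subunits to actin, fell by 0.78 (arrays -0.94 and -0.62, adjusted p = 0.0349). In Sox4 cKO both genes read -0.60 and -0.50, and in Sox11 cKO -0.07 and -0.11, without passing. Their differences between dcKO and each single knockout did not pass either. The median over the 46 genes in dcKO was -0.12, against -0.01 over all named genes. Of the 46, 36 were below 0, where 10988 of all 21368 named genes were. Without dcKO replicate 1 only Tes still passed. None of 16 genes of integrin inhibition and traffic and none of 13 tetraspanins and lateral partners passed in any genotype, with lowest adjusted p in dcKO of 0.424 and 0.325.

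**Figure D4:**
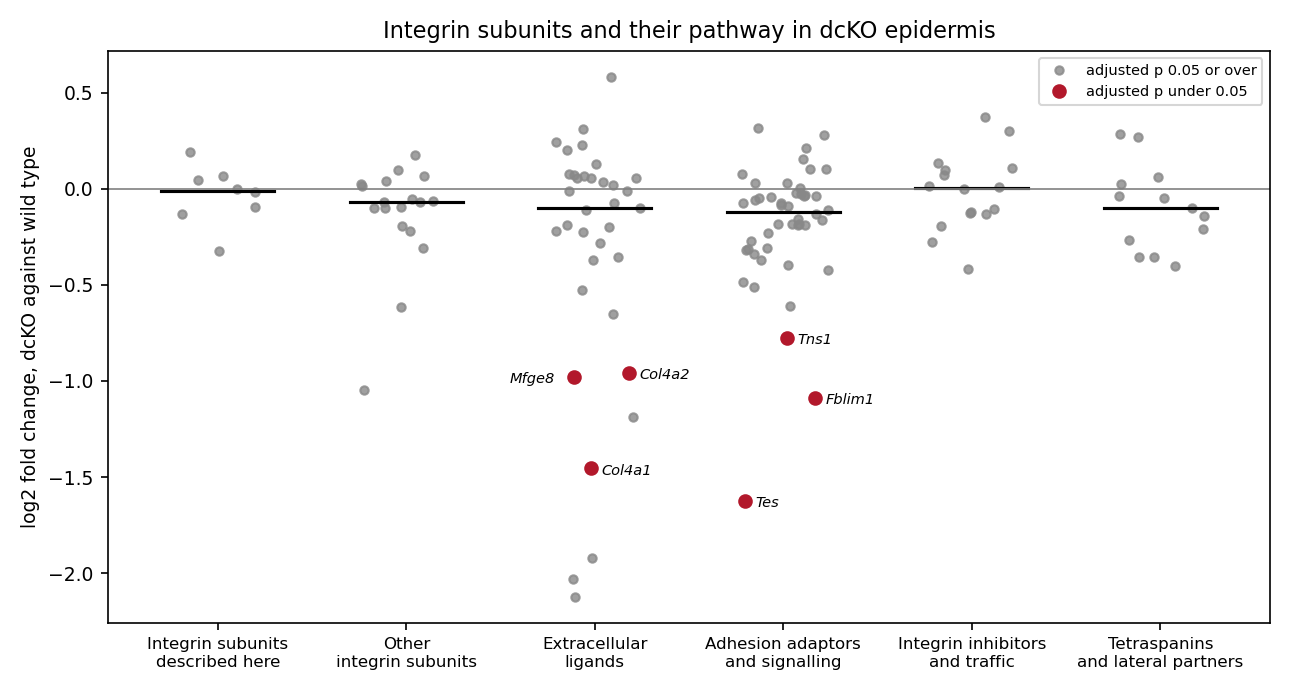
Log2 fold change in dcKO against wild type (y axis) of the 8 subunits and of the 5 pathway lists (x axis), each point a gene at its brightest probe and each black bar the list's median. Points in red had an adjusted p under 0.05; they are Col4a1, Col4a2, Mfge8, Tes, Fblim1 and Tns1, and none is an integrin subunit.

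Across the 6 arrays the subunits varied in different ways. As a description of 6 ratios that share dye and slide, Itga2 and Itga5, the dimmest pair, correlated at r = 0.82, Itga9 and Itgb1 at 0.70, and Itgav and Itgb6 at -0.67. Of 10394 genes well above background throughout, those most like Itgb1 over the 6 arrays were Dnajc3 (r = 0.990), Zfp87 (0.981) and Zc3hav1 (0.980). Those most like Itga9 were Gys1 (0.973), Ptgds (0.971) and Socs6 (0.968).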

How the data were processed

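The authors scanned each array with Agilent Feature Extraction 11.0.1.1, and the deposited scanner files give the median intensity of each spot in both channels, its local background, marks for spots above background and a log10 ratio. The authors' series table holds log2 values of knockout against wild type, background corrected in limma 3.5 with normexp and an offset of 16 and normalised by loess. Recomputed from the intensities, it had a slope of 1 or -1 (by dye) and no colour adjustment. The series table was used as the main values.

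A linear model over all 6 arrays (limma 3.58.1, R 4.3.3) had a coefficient for each genotype and 1 for dye, which stood in for ComBat. It had 2 residual and 6.65 prior degrees of freedom, and tests were two-sided. Replicate number and dye orientation coincide, so the dye coefficient was also the replicate block. Deviations of same-numbered arrays correlated at 0.259, 0.306 and 0.328. The Y-linked Ddx3y, Eif2s3y and Uty were well above background in both channels on replicate 1 of each single knockout and on both dcKO arrays. Xist was so only on replicate 2 of each single knockout. Sex thus went with replicate number in the single knockouts but not in dcKO, and its part was not tested. Of the probes, 28331 were named through RefSeq (GRCm38.p6), and the brightest probe of a gene was used. The array was designed on another assembly, so the probes are given no coordinates, and the promoter windows carry those of RefSeq. All arrays lay on 1 slide and in 1 scan. Between 38.9% and 43.6% of spots were well above background and 0 were saturated; the number of arrays limits the precision. The 1.25-fold ratio of Itga9 in dcKO sets the wild-type mean against the knockout probe's own level.

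The subunits and the pathway and marker lists were chosen with earlier results of these data known. From each pathway list, genes that passed in any comparison were to be named, up to 8 by adjusted p; other genes named, the cell-type markers aside, were chosen after their values were seen. For Itgb1 and for the subunit with the lowest p in dcKO, the 3 genes with the highest correlation were named. The model was tested on simulated data. Alternatives were another offset, no background subtraction, median centring, the Feature Extraction ratio, no replicate block, ComBat, a filter on dim probes, the mean of a gene's probes and leaving out each array.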

Additional observations from a re-analysis of the deposited data

Results flagged for a closer look

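In 3 cases both arrays of a genotype moved one way and both arrays of another the opposite way, and in none did the difference pass. Between 22.5% and 25.2% of all probes moved a given way on both arrays of a genotype. The share of all probes with such opposite pairs was not counted, so the 3 cases are not read as a trait of the subunits. Itga9 was above wild type on both Sox11 cKO arrays and below it on both dcKO arrays, and dcKO minus Sox11 cKO was -0.42 (limma, adjusted p = 0.728). Itgb1 was below wild type on both Sox4 cKO arrays and above it on both Sox11 cKO arrays, and Sox11 cKO minus Sox4 cKO was 0.22 (limma, adjusted p = 0.96). Itgb5 read 0.02 on both Sox4 cKO arrays and was below wild type on both dcKO arrays, and dcKO minus Sox4 cKO was -0.15 (limma, adjusted p = 0.954). These signs are of ratios with the dye effect left in. Less the dye term, the Sox4 cKO arrays read 0.08 and -0.04 for Itgb5 and -0.16 and 0.00 for Itgb1. The Itga9 signs held, at 0.04 and 0.15 in Sox11 cKO and -0.15 and -0.50 in dcKO. A second Itgb1 probe went the other way, at 0.11 in Sox4 cKO and -0.33 in Sox11 cKO. None of the 8 groups of 6 wild-type levels held an outlier by Dixon's test.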

How the results depend on the processing

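With 2 arrays per genotype the median SE of the subunits' log2 fold changes was 0.14, above their median size of 0.08 to 0.11. No alternative, the array left out included, brought any of the 8 subunits past the threshold. With ComBat in place of the dye term, the lowest unadjusted p fell to 0.00688 (limma, Itga5 in Sox11 cKO). That probe was above background in no channel. The lowest adjusted p with ComBat was 0.0909 (limma, Itga9 in dcKO). Under ComBat 12 of 48 values had an unadjusted p under 0.05, and 3628 probes passed in dcKO in place of 464. Without the replicate block 0 subunits passed in any comparison (lowest adjusted p 0.878), and 270 probes passed in dcKO. With the offset at 50, 1375 probes passed in dcKO, and 1102 did so with no background subtraction. With the Feature Extraction log ratio 0 probes passed (limma, dcKO). A filter on dim probes dropped Itga5. Slide and scan could not be fitted because all arrays shared them.

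Some signs among these values turned, and the cause was not tested. With the offset at 50, Itgb6 read 0.01 for dcKO minus the sum. With no background subtraction, Itga5 read 0.15 in Sox4 cKO, -0.02 in dcKO, -0.17 for dcKO minus Sox4 cKO and -0.12 for dcKO minus the sum, Itga2 read 0.09 in Sox11 cKO and -0.08 for dcKO minus Sox11 cKO, and Itgb6 read 0.02 for dcKO minus the sum. With median centring, Itgb1 read 0.01 in Sox4 cKO and Itgb6 -0.01 for dcKO minus Sox4 cKO. With the Feature Extraction log ratio, Itga2 read 0.69 in Sox11 cKO, -0.48 in dcKO, -0.15 and -1.16 for dcKO minus Sox4 cKO and minus Sox11 cKO, and -0.84 for dcKO minus the sum, while Itga5 read 0.06 in Sox4 cKO, Itgav 0.14 in dcKO and Itgb1 0.03 for dcKO minus Sox4 cKO. With the mean of a gene's probes, Itgav read 0.05 in Sox4 cKO, 0.03 in dcKO and -0.01 for dcKO minus Sox4 cKO, Itgb1 read 0.01 in Sox4 cKO, -0.09 in Sox11 cKO, 0.07 for dcKO minus Sox11 cKO and 0.06 for dcKO minus the sum, and Itgb6 read -0.01 for dcKO minus Sox4 cKO.

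With each array left out in turn, signs turned in Sox4 cKO for Itga5 (-0.13 to 0.02), Itga9 (-0.09 to 0.26), Itgav (-0.68 to 0.36), Itgb1 (-0.20 to 0.04), Itgb5 (-0.07 to 0.11) and Itgb6 (-0.33 to 0.50), and in Sox11 cKO for Itgav (-0.49 to 0.33) and Itgb5 (-0.01 to 0.23). In dcKO they turned for Itga2 (-0.02 to 0.15), Itga3 (-0.21 to 0.20, around a fitted 0.00), Itgav (-0.13 to 0.10), Itgb1 (-0.34 to 0.14) and Itgb6 (-0.16 to 0.54). For dcKO minus Sox4 cKO they turned for Itga3 (-0.24 to 0.17), Itgav (-0.38 to 0.67), Itgb1 (-0.26 to 0.22) and Itgb6 (-0.31 to 0.53), for dcKO minus Sox11 cKO for Itgav (-0.35 to 0.47) and Itgb6 (-0.27 to 0.42), and for dcKO minus the sum for Itgav (-0.30 to 0.75), Itgb1 (-0.39 to 0.08) and Itgb6 (-0.43 to 0.41). Itga9 stayed below wild type in dcKO (-0.58 to -0.06). With 1 array left in a genotype, that array is assumed to vary like the others.

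The counts of ligands and adaptors were tried under the same alternatives after seeing the data. Of the ligands, 6 passed in dcKO with the offset at 50 and with no background subtraction, 8 with ComBat, 2 without the replicate block, 0 with the Feature Extraction log ratio, and 0 to 7 with an array left out. Of the adaptors, 8 passed with ComBat, 2 without the replicate block, 0 with the Feature Extraction log ratio, and 1 to 3 with an array left out. Without the replicate block Col4a2 (adjusted p 0.0798) and Tns1 (0.134) no longer passed. The call of Tes in Sox4 cKO was also lost with the filter on dim probes (adjusted p 0.0806) and with the mean of a gene's probes (0.0859).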
